A study of Mus musculus with 16 samples.

Results

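The genes of the mouse mitochondrial genome were followed in 16 RNA sequencing libraries of intestinal organoids, cultured epithelium that crypts form in a gel. Members were all genes whose symbol starts with mt-, which gave 37 of the 46078 genes counted: 13 protein-coding, 2 rRNA and 22 tRNA genes. All lie on chromosome M of GRCm38, 28 on the strand called plus here and 9 on the minus strand (mt-Nd6 and 8 tRNA genes).

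The libraries fell into 6 groups of C57BL6 organoids. Without conditioned medium there were 2 libraries labelled APC (Apc mutant) and 2 labelled WT, all from day 2. In conditioned medium there were 3 libraries labelled APCCM and 3 labelled WTCM on day 2, and 3 of each on day 4. Per the labels' protocols, wild type organoids came from Lgr5-EGFP-IRES-CreERT2 crypts and carried red mCherry (LeGO-C2). Apc-/- organoids carried the same Cre allele with Apcfl/fl, were recombined in culture with 4OH-Tamoxifen and carried green Venus (LeGO-V2). Villin-CreERT2.Apcfl/fl mice are named as a further source of crypts, and which libraries these crypts went into is not stated. All organoids grew with EGF, R-spondin and Noggin. The libraries labelled APCCM carry a mutant genotype label. All 12 treated libraries have Apc mutant medium in their treatment field, while the protocols name wild type and Apc-/- cultures as sources, so APCCM and WTCM are used below as the labels of libraries. Nothing says that the replicates came from separate animals, so p-values measure the spread between these samples only.

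Each conditioned medium library held 17986815 to 29152692 gene counts, and each untreated one 8325979 to 13027701. The targeted gene, Apc, stood at 273 to 310 CPM (a gene's count scaled to a fixed total of gene counts in each library) in the untreated APC libraries and at 77.7 to 83.8 CPM in the untreated WT ones; counts over the whole gene do not show whether its floxed part was lost. The Wnt target Nkd1 stood at 547 to 668 CPM in untreated APC and 1.44 to 2.02 CPM in untreated WT libraries, but at 1.11 to 2.08 CPM in the libraries labelled APCCM and 3.11 to 4.41 CPM in those labelled WTCM, which goes against the mutant genotype label of the APCCM libraries. The sum of histone mRNAs, most of which carry no poly(A), was 50.5 to 53.2 CPM without conditioned medium and 3976 to 5711 CPM with it. Levels with and without medium are therefore given side by side and not tested against each other, and medium and RNA content cannot be told apart between them. Replicate 1 of WTCM on day 4 stood apart from its group, and its values are given beside each result it touches.

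The mitochondrial genome encodes core subunits of respiratory complexes I, III, IV and V, and the rRNAs and tRNAs of the ribosome that translates them. Both strands are transcribed as long precursors, which are cut at the tRNAs that lie between the other genes, so levels of single RNAs also depend on processing and stability. All proteins for transcription, processing and translation of these RNAs are made from nuclear genes. Absorptive enterocytes and crypt base cells both rely on mitochondria, and nuclear DNA of mice holds copies of parts of the mitochondrial genome.

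One such copy covers the 6 protein-coding members with few counts, from mt-Co2 to mt-Nd4l. The part of the mitochondrial genome from position 6381 to 11042 (4662 bases) has a counterpart at chr1:24611535-24616197 (4663 bases, minus strand, GRCm38), annotated in GENCODE M21 as 7 pseudogenes, from Gm29216 to Gm28439. The spacing between neighbouring pseudogenes equals that between the mitochondrial genes in 5 of 6 gaps, and differs in the other (73 bases against 74). Of the members, 11 lie wholly inside this stretch: mt-Co2, mt-Atp8, mt-Atp6, mt-Co3, mt-Nd3, mt-Nd4l, mt-Ts1, mt-Td, mt-Tk, mt-Tg and mt-Tr. The copy begins inside mt-Co1, where 6 bases differ (T1056A, C1057T, A1059G, A1060G, C1062A and A1066T, counted from the first base of mt-Co1, with the mt-Co1 base first), and the next 479 bases are identical. The first 60 bases of the copy are shown with the differing bases in capitals, from GENCODE M21 transcripts, followed by the first 60 bases of mt-Co2, which are the same in its copy Gm28661.
mt-Co1: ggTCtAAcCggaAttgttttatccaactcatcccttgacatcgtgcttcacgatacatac
Gm29216: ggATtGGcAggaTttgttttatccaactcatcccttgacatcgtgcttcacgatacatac
mt-Co2 and Gm28661: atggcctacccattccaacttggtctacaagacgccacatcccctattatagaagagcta

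Over their shared length, mt-Co2, mt-Atp6, mt-Co3 and mt-Nd4l were identical to their copies, and mt-Nd3 differed at 1 base (T3C, counted from its first base). Of all stretches of 50 bases in a gene, 100% of those of mt-Co2, 99.9% of mt-Co3, 99.5% of mt-Atp6, 98.8% of mt-Nd4l and 98.0% of mt-Nd3 also occur in a nuclear transcript. The share was 62.2% for mt-Nd4, 51.1% for mt-Co1, 8.19% for mt-Nd2, 7.61% for mt-Nd5 and 0 for mt-Nd1. Reads with several alignments stand in no gene of these tables and made up 26.5 to 33.3% of reads with and 36.5 to 38.9% without conditioned medium. In these counts, mt-Co2, a subunit of complex IV, stood at 3.02 to 20.9 CPM over the 16 libraries, while its copy Gm28661 stood at 297 to 435 CPM. Counts of the 5 genes with near-complete copies, and in part those of mt-Co1 and mt-Nd4, therefore do not give the level of the mRNA. mt-Atp8, which lies between them and has 0 of its 50-base stretches in an annotated nuclear transcript, also had few counts, at most 14 in a library.

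Without conditioned medium, mt-Co3 (complex IV) lay at 9.90 to 18.3 CPM, mt-Atp6 (complex V) at 14.3 to 17.3 CPM, mt-Nd3 (complex I) at 1.80 to 2.66 CPM, mt-Nd4l (complex I) at 0.642 to 1.15 CPM and mt-Atp8 (complex V) at 0.431 to 1.28 CPM. With it, they lay at 2.00 to 3.91, 1.76 to 4.17, 0.0426 to 0.493, 0.0853 to 0.479 and 0 to 0.197 CPM. In the 5 comparisons below, mt-Atp6, mt-Nd3, mt-Nd4l and mt-Atp8 were never past the threshold (lowest adjusted p = 0.065, for mt-Atp6 between days in WTCM).

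The 7 other protein-coding genes, mt-Nd1, mt-Nd2, mt-Co1, mt-Nd4, mt-Nd5, mt-Nd6 and mt-Cytb, held 99.87 to 99.97% of the protein-coding mitochondrial counts in each library. Levels per length, as mean CPM per kb ± SD, ran in untreated WT libraries (n = 2) from 9685 ± 889 for mt-Nd1, 9132 ± 599 for mt-Co1 and 8537 ± 697 for mt-Cytb through 3076 ± 180 for mt-Nd2 to 1880 ± 199 for mt-Nd4 and 1605 ± 121 for mt-Nd5. The libraries of mt-Nd1 and mt-Co1 overlapped, as did those of mt-Co1 and mt-Cytb, and each further step in this order lay beyond the range of its neighbour. The order depends on how the copied stretches are counted. Divided by the number of 50-base stretches not shared with a nuclear transcript in place of length, mean CPM per 1000 such stretches ± SD was 19300 ± 1265 for mt-Co1, 10208 ± 937 for mt-Nd1, 8919 ± 728 for mt-Cytb, 5161 ± 547 for mt-Nd4, 3517 ± 206 for mt-Nd2 and 1785 ± 134 for mt-Nd5, so that mt-Co1 came first and mt-Nd4 moved above mt-Nd2. mt-Nd6, the only protein-coding gene on the minus strand and a complex I subunit, was the lowest of the 7 at 211 ± 3.39 CPM per kb. Both rRNAs were low for genes of their kind, with mt-Rnr1 (12S) at 721 ± 84.9 and mt-Rnr2 (16S) at 821 ± 47.4 CPM per kb in untreated WT. The labelled library kit removes rRNA, and these values are not taken as levels in the cell. Histone mRNAs were also low in the untreated libraries (50.5 to 53.2 CPM, against 3976 to 5711 CPM with medium). Whether they were prepared as labelled cannot be told here, and the part of the preparation in the rRNA, mt-Nd6 and tRNA levels was not tested.

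**Figure D1:**
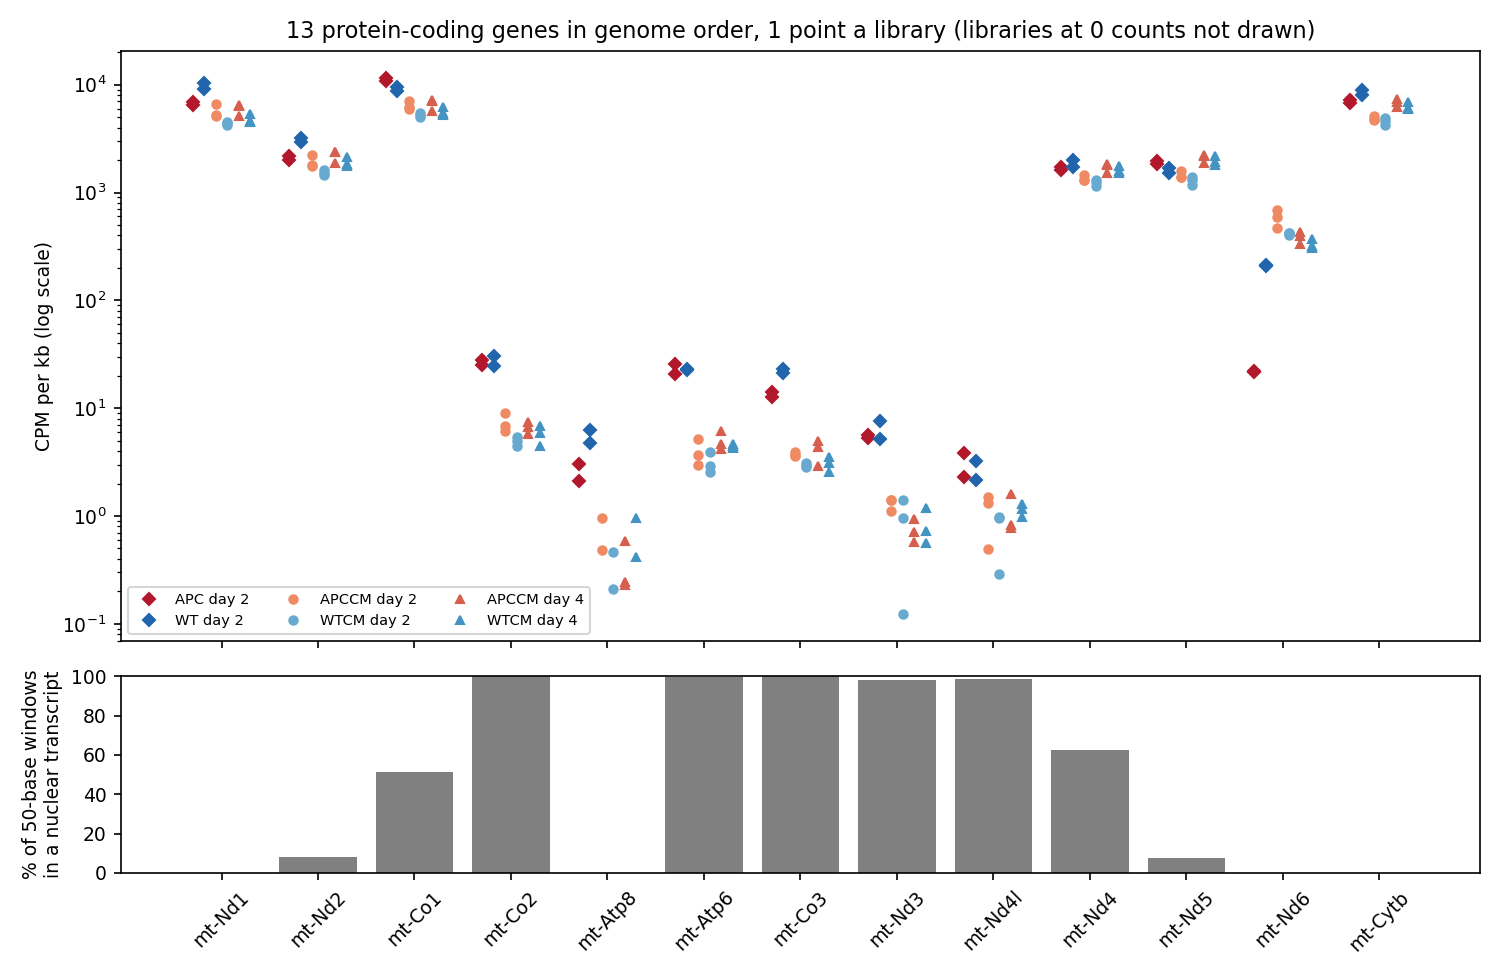
CPM per kb (log scale) of the 13 protein-coding genes in genome order, with 1 point for each library coloured by group and libraries at 0 counts not drawn (top), and the percent of 50-base stretches that also occur in a nuclear transcript (bottom). The 6 genes from mt-Co2 to mt-Nd4l lie far below their neighbours, and 5 of them are nearly wholly copied, at 98.0 to 100%.

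The 37 genes together took 2.64 to 3.13% of gene counts in APCCM and 2.23 to 2.52% in WTCM libraries on day 2, and 2.88 to 3.60% and 2.79 to 3.20% on day 4. Without conditioned medium they took 3.90 to 4.20% in APC and 4.16 to 4.64% in WT libraries. By class, the protein-coding genes summed to 39767 ± 2037 CPM (SD, n = 2) in APC and 42020 ± 3260 CPM (n = 2) in WT libraries, and these ranges overlapped. The rRNA genes summed to 718 ± 90.9 against 1988 ± 156 CPM and the tRNA genes to 9.39 ± 2.32 against 22.7 ± 4.69 CPM, with no overlap. mt-Td alone made up 66.5 ± 6.77% of these tRNA counts in APC and 15.2 ± 3.22% in WT libraries. It went against the sum, at a mean of 6.17 CPM in APC and 3.38 CPM in WT, and lies inside the copied stretch. In conditioned medium on day 2 the protein-coding sums were 27720 ± 2596 (APCCM, n = 3) and 23398 ± 1226 CPM (WTCM, n = 3), and the tRNA sums 49.7 ± 8.94 and 33.2 ± 2.83 CPM, both without overlap. On day 4 the protein-coding sums were 32610 ± 3616 and 28455 ± 2633 CPM and the tRNA sums 43.4 ± 4.85 and 34.8 ± 7.98 CPM, and the ranges of the labels overlapped for both. The rRNA sums in conditioned medium lay between 163 and 800 CPM in 11 libraries and at 4875 CPM in replicate 1 of WTCM on day 4. In these bulk samples, fewer cells of a type and less RNA per cell cannot be told apart.

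**Figure D2:**
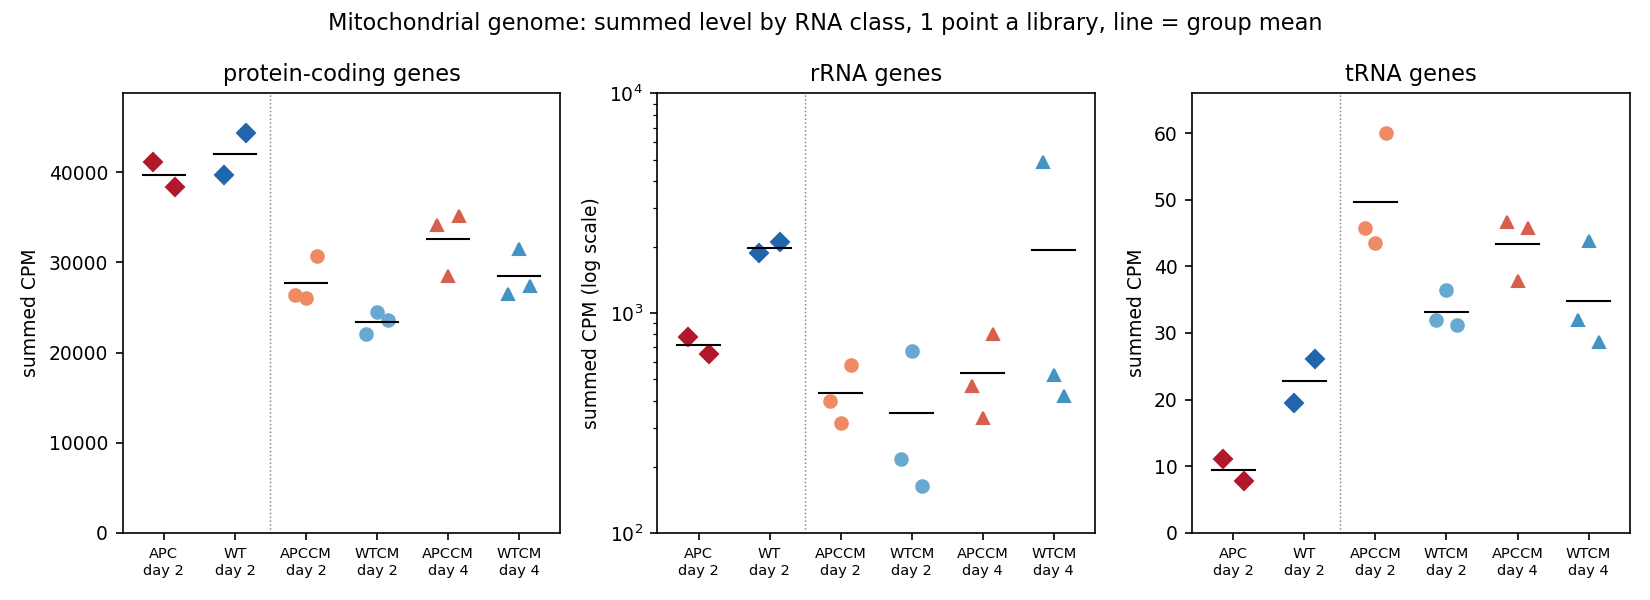
Summed CPM of the protein-coding, rRNA (log scale) and tRNA genes in each of the 16 libraries, 1 point for each library, with the group mean as a line and a dotted line between libraries without and with conditioned medium. The rRNA sum of 1 WTCM library on day 4 lies at 4875 CPM. Among untreated libraries the tRNA sums average 9.39 CPM in APC and 22.7 CPM in WT, with a mean of 66.5% and 15.2% from mt-Td.

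The first comparison asked how Apc mutant and wild type organoids differ without conditioned medium. mt-Nd6 was about an order of magnitude lower in APC. The complex I mRNAs mt-Nd1 and mt-Nd2 and the complex III mRNA mt-Cytb were lower by smaller steps. The 16S rRNA and 8 tRNAs were lower as well. Histone mRNAs were low in both groups (51.7 and 53.2 CPM in APC, 50.5 and 50.9 CPM in WT). The part of the preparation in the mt-Nd6, tRNA and rRNA differences was not tested. mt-Nd6 stood at 11.2 and 11.4 CPM in the APC libraries and at 108 and 111 CPM in the WT ones. In edgeR's quasi-likelihood fit of all 16510 genes that passed a filter on low counts, with TMM scaling, its log2 fold change was -3.44 ± 0.16 (SE, adjusted p = 1.1e-15). Of the 37 members, 27 passed that filter (13 protein-coding, 2 rRNA and 12 tRNA genes). At an adjusted p under 0.05, 15 were lower in APC and 0 higher, with 62.5% of all genes called in this comparison and 30.1% called lower. The median log2 fold change was -0.41 for the 13 protein-coding genes, -1.57 for the 2 rRNA genes and -2.64 for the 12 tRNA genes. That of all genes tested was 0, but TMM scaling itself centres fold changes near 0, so it is no independent reference. The ratio of summed protein-coding CPM of APC to WT was -0.08 (log2) on all gene counts and -0.25 on library sizes scaled by TMM.

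mt-Nd1 stood at 6686 and 6258 CPM in APC and 8667 and 9870 CPM in WT, and fell by 0.69 ± 0.10 on the log2 scale (adjusted p = 2.7e-06, same test). mt-Nd2 fell by 0.73 ± 0.10 (adjusted p = 1e-06), mt-Cytb by 0.47 ± 0.08 (adjusted p = 8.4e-06) and mt-Nd4 by 0.34 ± 0.09 (adjusted p = 0.0012); mt-Nd2 and mt-Nd4 encode complex I subunits. mt-Co1, the catalytic subunit of complex IV, went the other way in CPM, at 17995 and 16655 in APC against 13454 and 14762 in WT, but its fold change after TMM scaling was 0.13 ± 0.09 (adjusted p = 0.22). mt-Nd5, a further complex I subunit, had a fold change of 0.08 ± 0.08 (adjusted p = 0.43). Shares of the protein-coding mitochondrial counts, which do not depend on scaling between libraries, differed likewise. mt-Co1 made up 43.5 to 43.7% of these counts in APC and 33.3 to 33.9% in WT libraries, mt-Nd1 16.2 to 16.3% against 21.8 to 22.3%, and mt-Nd6 0.0272 to 0.0298% against 0.250 to 0.273%. These are shares of assigned counts and not of the mRNA pool. The genes from mt-Co2 to mt-Nd4l held only 0.0330 to 0.134% of them, and mt-Co1 and mt-Nd4 were counted in part. mt-Co3 also fell, by 0.90 ± 0.17 (adjusted p = 7.6e-05), on counts that its nuclear copy limits, and the copy Gm28437 fell by 0.89 ± 0.11.

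mt-Rnr2 stood at 403 and 333 CPM in APC against 1246 and 1352 CPM in WT and fell by 1.99 ± 0.74 (adjusted p = 0.022), a call that was lost without either APC library, in a robust version of the fit and in DESeq2. mt-Rnr1 stood at 379 and 321 against 631 and 746 CPM (adjusted p = 0.19). The untreated groups did not overlap for either rRNA. The fit takes a single spread for each gene from all 6 groups. The SE here, 0.75 for mt-Rnr1 and 0.74 for mt-Rnr2, therefore also draws on replicate 1 of WTCM on day 4 (2018 and 2857 CPM).

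Of the 12 tRNA genes tested, 8 were lower in APC: mt-Tl1, mt-Ti, mt-Tq, mt-Tm, mt-Tw, mt-Te, mt-Tt and mt-Tp. The gene sequences of those the results turn on are given 5′ to 3′ from GENCODE M21 transcripts, with the anticodon in capitals. Each anticodon was set in advance, and its place was found by a search for the best-paired anticodon stem. The tRNAs are those for glutamine (mt-Tq), methionine (mt-Tm), tryptophan (mt-Tw), proline (mt-Tp) and aspartate (mt-Td).
mt-Tq: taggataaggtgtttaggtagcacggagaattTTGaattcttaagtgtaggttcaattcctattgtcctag
mt-Tm: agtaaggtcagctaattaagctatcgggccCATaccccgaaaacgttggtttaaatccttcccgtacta
mt-Tw: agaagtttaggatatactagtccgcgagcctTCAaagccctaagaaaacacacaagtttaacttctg
mt-Tp: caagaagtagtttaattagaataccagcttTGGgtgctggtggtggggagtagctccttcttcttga
mt-Td: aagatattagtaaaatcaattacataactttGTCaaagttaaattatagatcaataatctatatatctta

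mt-Tp, on the minus strand, stood at 0.172 and 0.0768 CPM in APC and 3.21 and 3.84 CPM in WT, and fell by 4.92 ± 0.54 (adjusted p = 1.7e-08, edgeR). mt-Tq, also on the minus strand, stood at 0.0862 and 0 against 1.92 and 1.80 CPM (adjusted p = 1e-05). mt-Tw stood at 0.604 and 0.461 against 2.75 and 5.52 CPM and fell by 3.06 ± 0.45 (adjusted p = 1.8e-06). These are low counts, and a tRNA gene of 59 to 75 bases can be shorter than a read or its fragment, so they need not be counts of mature tRNA. mt-Tl1 (1.81 and 0.461 against 3.12 and 5.04 CPM) and mt-Tt (0.431 and 0.384 against 1.65 and 2.04 CPM) fell with adjusted p of 0.00086 and 0.0072. mt-Te (glutamate) had 0 counts in both APC libraries and 10 in the WT ones, which makes it at least 4.27-fold lower against a floor of 3 counts over the APC group. The calls of mt-Ti (0.259 and 0.0768 against 0.733 and 1.08 CPM) and mt-Tm (0 and 0.154 against 0.458 and 0.601 CPM) were lost when either WT library, or 1 of the APC libraries, was left out, and that of mt-Ti also in the robust fit. mt-Td differed in the other direction, at 6.81 and 5.53 CPM in APC against 3.39 and 3.36 CPM in WT (adjusted p = 0.06), and had 0 or 1 count in each library with conditioned medium. It lies inside the stretch with a nuclear copy, in a part between pseudogenes that the search of annotated transcripts did not cover. mt-Ta, mt-Tn and mt-Ts1 were not past the threshold (adjusted p = 0.14, 0.17 and 0.25).

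By strand, 4 of the 7 minus-strand members tested were lower (mt-Nd6, mt-Tq, mt-Te and mt-Tp), with a median log2 fold change of -3.44, and 11 of the 20 plus-strand members, with a median of -0.71. Strand goes with RNA class here. All minus-strand members tested but mt-Nd6 were tRNA genes, while the plus-strand ones took in 12 protein-coding and both rRNA genes. These medians therefore do not compare strand alone. How strand was treated in counting is not given in the sources used here. Counts of a minus-strand gene and of antisense reads over it therefore cannot be told apart. Absorptive enterocyte markers, 12 genes of which 11 were called lower in APC, summed to 496 to 500 CPM in APC and 18276 to 18796 CPM in WT libraries with none at 0. Fibroblast markers summed to 337 to 360 against 5.28 to 6.51 CPM, with Col1a2, Col3a1 and Dcn at 0 in both groups. Of 10 crypt base stem cell markers, 7 were higher and 3 lower (summed level 4281 to 4342 CPM in APC and 4462 to 4732 CPM in WT), and of 8 epithelium markers 5 were lower and 2 higher (4331 to 4748 against 6268 to 6934 CPM), with none of either list at 0. The part of these differences in the results above was not tested.

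Nuclear genes that work with the mitochondrial genome differed in the same comparison. Of 21 nuclear subunits of complexes I, III, IV and V, 20 were lower in APC and 0 higher (median -0.90), among them Cyc1 (cytochrome c1 of complex III, -1.39 ± 0.07) and Cox5b (complex IV, -1.29 ± 0.11). Of 20 genes for mitochondrial RNA processing and stability, 17 were lower and 1 higher (median -0.55), with Lrpprc, which binds and stabilises mitochondrial mRNAs, at -1.10 ± 0.08 and Fastkd2 at -0.97 ± 0.09. Of 9 transcription genes, 4 were lower and 1 higher, with the transcription initiation factor Tfb2m at -1.04 ± 0.15. Counts lower and higher were 10 and 3 of 19 for aminoacyl-tRNA synthetases, 7 and 4 of 19 for rRNA and tRNA modification, 7 and 4 of 15 for biogenesis regulators, and 3 and 5 of 14 for DNA replication and nucleotide supply, against 30.1% lower and 32.4% higher among all genes.

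**Figure D3:**
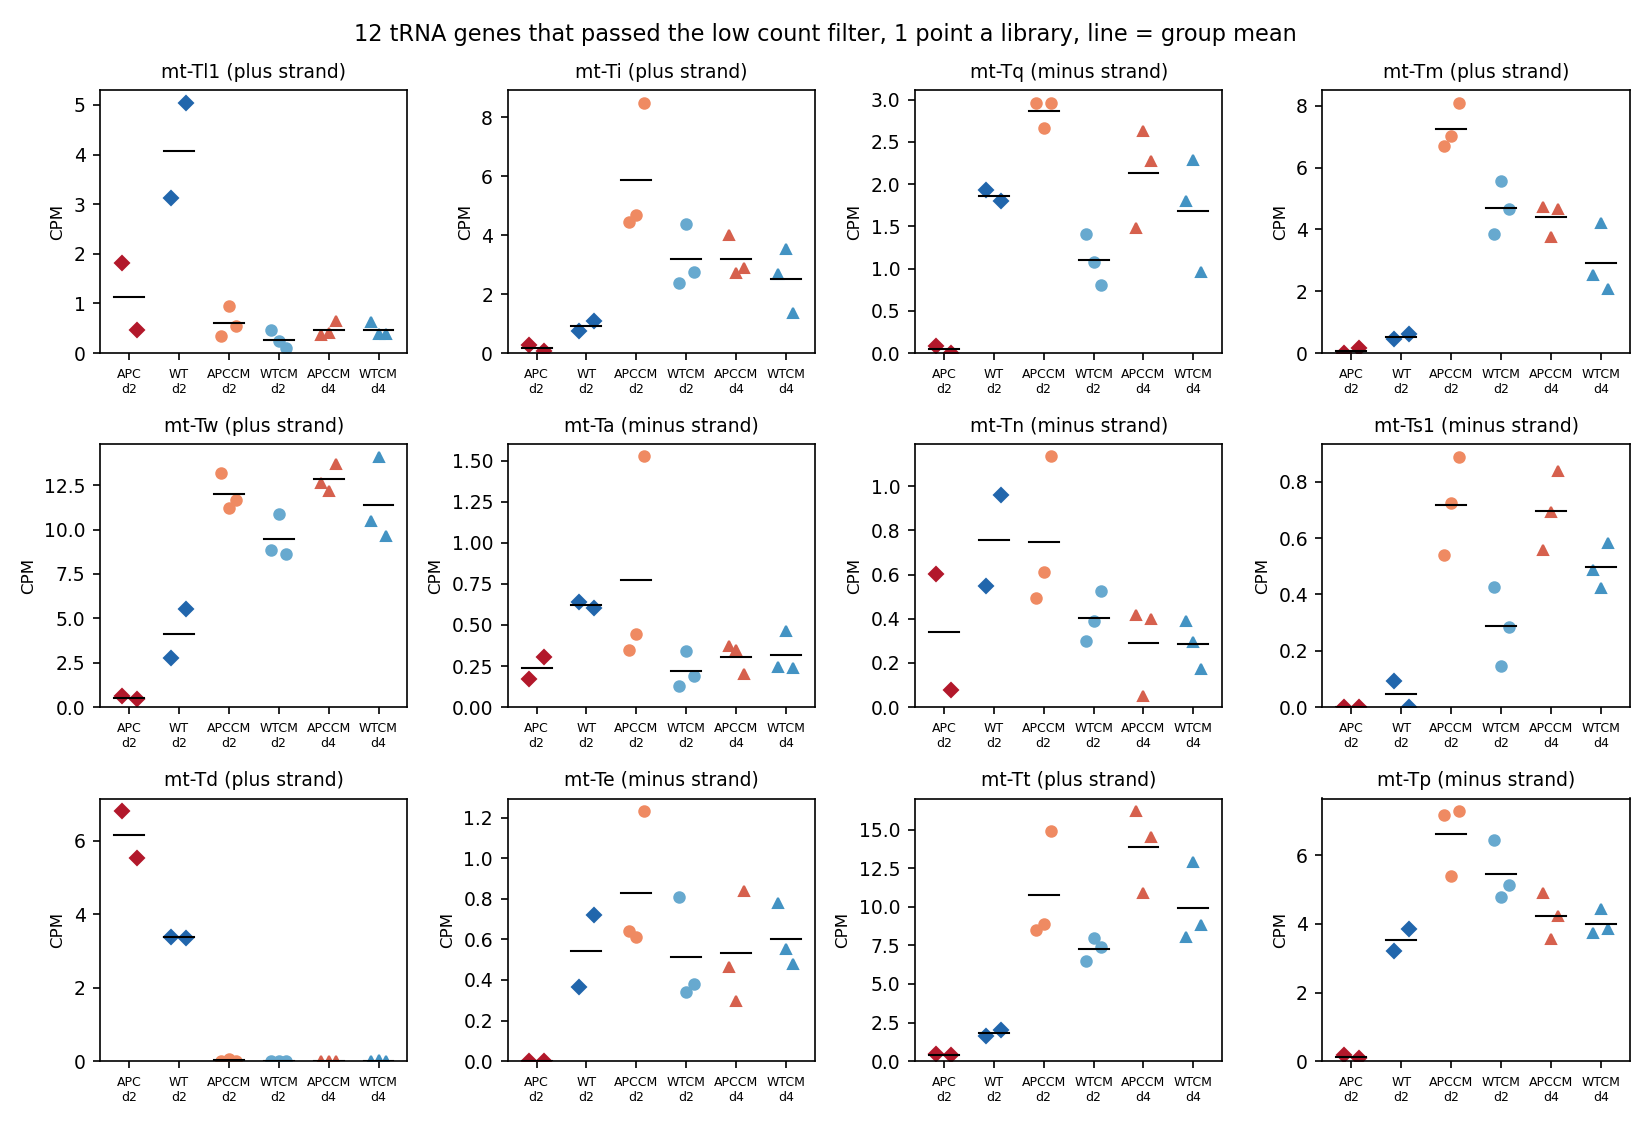
CPM of the 12 tRNA genes that passed the filter on low counts, 1 point for each library with the group mean as a line, the strand named above each panel and each panel on its own axis from 0. mt-Tp lies at 0.172 and 0.0768 CPM in untreated APC libraries and mt-Tq at 2.67 to 2.96 CPM in APCCM on day 2 against 0.809 to 1.41 CPM in WTCM.

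In conditioned medium on day 2, libraries labelled APCCM had higher levels of several mitochondrial RNAs than those labelled WTCM, by about 0.3 on the log2 scale for the mRNAs at the 5′ end of the plus-strand precursor and by more for mt-Nd6 and several tRNAs. At an adjusted p under 0.05, 11 of the 27 members were higher and 0 lower, with 16.7% of all genes called and 8.54% called higher. mt-Nd6 stood at 310, 245 and 356 CPM in APCCM and 212, 219 and 217 CPM in WTCM, and rose by 0.46 ± 0.09 (adjusted p = 0.0011, edgeR). mt-Tq stood at 2.95, 2.67 and 2.96 against 1.41, 1.07 and 0.809 CPM and rose by 1.34 ± 0.29 (adjusted p = 0.0018). The groups did not overlap for either gene, and these were the only 2 members called in all 6 fits that left out 1 of the libraries compared, under each other alternative run and in the robust fit.

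mt-Nd1 stood at 5062, 4930 and 6394 CPM against 4036, 4349 and 4229 CPM and rose by 0.35 ± 0.08 (adjusted p = 0.0052); it was called in all 6 left-out fits but not in the robust fit. mt-Nd2 rose by 0.30 ± 0.08 (adjusted p = 0.015) and mt-Co1 by 0.26 ± 0.07 (adjusted p = 0.013), without overlap between the groups. Both calls were lost in the robust fit, that of mt-Nd2 also without 3 of the 6 libraries and that of mt-Co1 without 2 of the 6. mt-Co1 was counted in part, and 2 pseudogenes that share stretches with it, Gm29216 and Gm13340, were not called. Their fold changes were 0.07 ± 0.06 and 0.06 ± 0.06 (edgeR, adjusted p = 0.47 and 0.54). On day 4 they were not called either (adjusted p = 0.13 and 0.39). mt-Nd5 (0.14 ± 0.07, adjusted p = 0.17), mt-Nd4 (0.10 ± 0.07, adjusted p = 0.38) and mt-Cytb (0.06 ± 0.06, adjusted p = 0.58) were not past the threshold. Shares of the protein-coding mitochondrial counts showed the same order, with mt-Nd1 at 19.0 to 20.8% in APCCM and 17.7 to 18.3% in WTCM, and mt-Cytb at 19.2 to 21.0% against 22.0 to 22.7%. Replicate 3 was the highest APCCM library and replicate 1 the lowest WTCM library for each of the 7 well counted mRNAs.

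The other members called higher were mt-Ti, mt-Tm, mt-Ta, mt-Ts1, mt-Tt and mt-Co2. mt-Tm stood at 6.70, 7.01 and 8.09 against 3.84, 5.56 and 4.67 CPM (0.61 ± 0.18, adjusted p = 0.024), mt-Ti at 4.43, 4.67 and 8.48 against 2.39, 4.39 and 2.76 CPM (adjusted p = 0.029), and mt-Tt at 8.52, 8.90 and 14.9 against 6.48, 7.96 and 7.38 CPM (adjusted p = 0.047). mt-Ta stood at 0.345, 0.445 and 1.53 against 0.128, 0.342 and 0.190 CPM (adjusted p = 0.024) and mt-Ts1 at 0.542, 0.723 and 0.888 against 0.426, 0.146 and 0.286 CPM (adjusted p = 0.043). mt-Ts1, like mt-Co2, lies inside the stretch with a nuclear copy. mt-Co2, on counts that its nuclear copy limits, had an adjusted p of 0.039, and the copy Gm28661 was not called (adjusted p = 0.12). The 2 rRNA genes, at 93.1 to 135 against 54.3 to 267 CPM and 211 to 488 against 109 to 405 CPM, were not called (adjusted p = 0.84 for mt-Rnr1 and 0.61 for mt-Rnr2). The count of 11 is unsteady: it was 3 without replicate 3 of APCCM, 4 without replicate 1 or without replicate 3 of WTCM, and 6 in the robust fit (mt-Tq, mt-Nd6, mt-Tm, mt-Ta, mt-Ts1 and mt-Co2). Reads outside annotated features made up 15.6 to 19.2% in APCCM and 14.4 to 16.5% in WTCM libraries, and their part in the result was not tested.

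On day 2, of the 21 nuclear subunits, 12 were lower in APCCM and 0 higher (median -0.17, with 8.15% of all genes called lower), among them Cyc1 (-0.28 ± 0.05) and Atp5b, a catalytic subunit of ATP synthase (-0.23 ± 0.04). Of the RNA processing genes 1 of 20 was lower (Ptcd1, -0.32 ± 0.08), a share under that of all genes, and of the transcription genes 0 of 9 were called. Of the biogenesis regulators 4 of 15 were lower, led by Esrrg (-0.55 ± 0.09), a nuclear receptor that drives genes of oxidative metabolism. Of the crypt base stem cell markers 5 of 10 were lower in APCCM and 0 higher (summed level 4680 to 4826 against 5294 to 5735 CPM), and of the absorptive enterocyte markers 3 of 12 were lower and 2 higher, with none of either list at 0; their part in the results was not tested.

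On day 4, mt-Nd1 and mt-Co1 were higher in APCCM and both rRNAs lower, and each of the 4 calls was lost in at least 3 of the 6 fits that left out 1 library. mt-Nd1 stood at 6120, 4903 and 6233 CPM in APCCM and 4295, 5095 and 4398 CPM in WTCM and rose by 0.29 ± 0.08 (adjusted p = 0.021), and mt-Co1 stood at 11019, 8880 and 11269 against 8075, 9624 and 8368 CPM and rose by 0.22 ± 0.07 (adjusted p = 0.038); the groups overlapped for both. mt-Rnr1 and mt-Rnr2 were called lower (-2.06 ± 0.62 and -1.84 ± 0.59, adjusted p = 0.025 and 0.036), so that 4 of 27 members were called, with 15.6% of all genes called (7.83% higher and 7.80% lower). The rRNA calls rested on replicate 1 of WTCM, where mt-Rnr1 stood at 2018 CPM against 207 and 163 CPM in replicates 2 and 3 and mt-Rnr2 at 2857 against 316 and 258 CPM. Without that library the fold changes were 0.10 and 0.20 (adjusted p = 0.92 and 0.8). That library also held 33.3% reads with several alignments, 88.9 CPM of genes annotated as nuclear rRNA against 9.87 and 13.5 CPM, and 3066 CPM of Lars2, the mitochondrial leucyl-tRNA synthetase, against 242 and 272 CPM; the part of these in the result was not tested. No member was called without replicate 1 of WTCM, without replicate 1 of APCCM or in the robust fit, 2 were called without replicate 3 of either label, and the DESeq2 test called 1. Of the nuclear subunits, 10 of 21 were lower in APCCM and 0 higher (median -0.15), with Cox5b at -0.36 ± 0.07 and Cox4i1 at -0.24 ± 0.05, both of complex IV. Of the crypt base stem cell markers 9 of 10 were lower and 0 higher (median -0.48, summed level 3472 to 3752 against 5578 to 5960 CPM), and of the absorptive enterocyte markers 5 of 12 were lower and 2 higher, with none of either list at 0; their part in the results was not tested.

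From day 2 to day 4 in conditioned medium, mt-Nd4, mt-Nd5 and mt-Cytb, the mRNAs farthest along the plus-strand precursor, rose under both labels together with mt-Nd2, and mt-Nd6 fell. In APCCM libraries 4 members rose (mt-Nd2, mt-Nd4, mt-Nd5 and mt-Cytb) and 4 fell (mt-Nd6, mt-Ti, mt-Tm and mt-Tp), with 23.9% of all genes called (12.2% higher and 11.7% lower). In WTCM libraries 6 rose (the same 4 mRNAs, mt-Rnr1 and mt-Rnr2) and 2 fell (mt-Nd6 and mt-Tm), with 24.1% of all genes called (12.5% higher and 11.6% lower). mt-Cytb, the cytochrome b of complex III, stood at 5354, 5459 and 5898 CPM on day 2 and 7904, 7063 and 8454 CPM on day 4 in APCCM, and rose by 0.51 ± 0.06 (adjusted p = 1.4e-06). In WTCM it stood at 4859, 5580 and 5309 CPM and then 6752, 7863 and 6941 CPM, and rose by 0.49 ± 0.06 (adjusted p = 3.7e-06). The days did not overlap under either label.

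mt-Nd5 stood at 2522, 2523 and 2893 CPM and then 3948, 3408 and 4033 CPM in APCCM (0.54 ± 0.07, adjusted p = 2.5e-06), and at 2165, 2516 and 2380 CPM and then 3274, 3982 and 3477 CPM in WTCM (0.64 ± 0.07, adjusted p = 4.1e-07). mt-Nd4 rose by 0.36 ± 0.07 and 0.42 ± 0.07 (adjusted p = 0.00038 and 9.1e-05). These 3 genes were called in every left-out fit of both labels. The copy of mt-Nd4, Gm28439, was called in WTCM (0.46 ± 0.10, edgeR, adjusted p = 0.0017) but not in APCCM (0.23 ± 0.10, adjusted p = 0.1). mt-Nd2 rose by 0.23 ± 0.08 in APCCM (adjusted p = 0.048), a call lost without 4 of the 6 libraries and in the robust fit, and by 0.36 ± 0.08 in WTCM (adjusted p = 0.0027). mt-Nd1 (0.10 ± 0.08 and 0.16 ± 0.08, adjusted p = 0.44 and 0.17) and mt-Co1 (0.10 ± 0.07 and 0.14 ± 0.07, adjusted p = 0.37 and 0.17) were not past the threshold. As a share of the protein-coding mitochondrial counts, mt-Nd5 went from 9.42 to 9.70% on day 2 to 11.5% or more on day 4 in APCCM libraries, and from 9.80 to 10.3% to 12.4 to 12.7% in WTCM libraries. mt-Co1 went from 35.3 to 36.1% to 31.2 to 32.3% and from 34.2 to 34.9% to 30.5 to 30.6%.

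**Figure D4:**
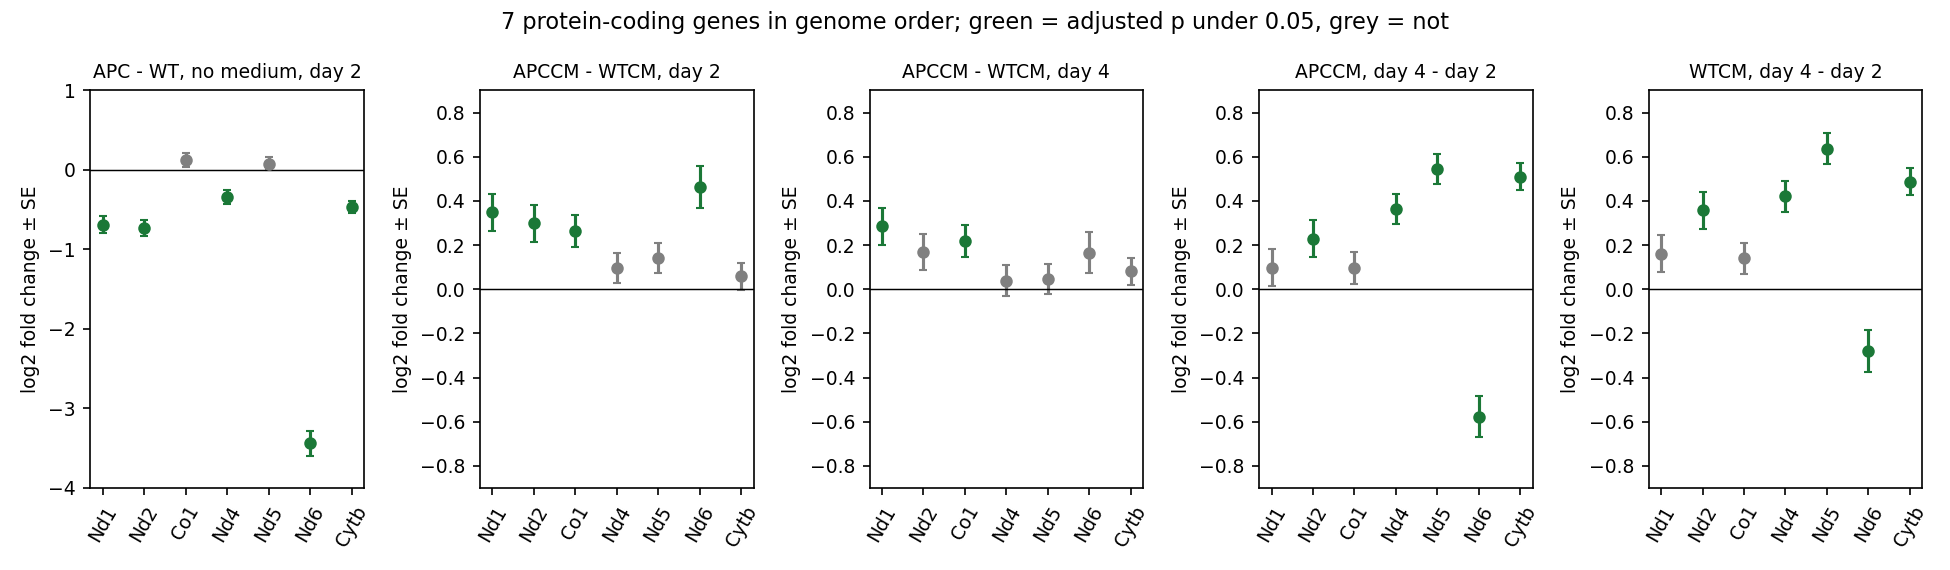
Log2 fold change ± SE (edgeR, n = 2 or 3 libraries in a group) of the 7 well counted protein-coding genes in genome order in the 5 comparisons, green where the adjusted p was under 0.05, with a wider axis in the first panel. Between labels on day 2, mt-Nd1 (0.35) lies above mt-Cytb (0.06); between days, mt-Nd5 (0.54 and 0.64) and mt-Cytb (0.51 and 0.49) lie above mt-Nd1 (0.10 and 0.16).

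mt-Nd6 went from 310, 245 and 356 CPM to 224, 172 and 204 CPM in APCCM and fell by 0.58 ± 0.09 (adjusted p = 6.7e-05), in every left-out fit. In WTCM it went from 212, 219 and 217 CPM to 167, 194 and 160 CPM and fell by 0.28 ± 0.09 (adjusted p = 0.032), a call lost without 5 of the 6 libraries and in the robust fit. mt-Tm, the methionine tRNA, fell by 0.70 ± 0.19 in APCCM (adjusted p = 0.007), from 6.70 to 8.09 CPM on day 2 to 3.76 to 4.73 CPM on day 4, and by 0.65 ± 0.20 in WTCM (adjusted p = 0.021, lost without 3 of the 6 libraries), where the days overlapped. mt-Tp fell by 0.62 ± 0.16 in APCCM (adjusted p = 0.0047), from 5.39 to 7.30 CPM to 3.56 to 4.92 CPM, and stood at 4.78 to 6.44 CPM and 3.75 to 4.45 CPM in WTCM (adjusted p = 0.057). mt-Ti fell in APCCM by 0.86 ± 0.27 (adjusted p = 0.021, lost without 3 of the 6 libraries and in the robust fit), from 4.43 to 8.48 CPM to 2.72 to 3.99 CPM. mt-Tw and mt-Tt, the tRNAs with the highest mean CPM, were not called between days (adjusted p = 0.59 and 0.11 in APCCM, 0.12 and 0.059 in WTCM). The rRNA calls in WTCM (2.69 ± 0.64 and 2.44 ± 0.61, adjusted p = 0.0033 and 0.0047) again rested on replicate 1 of day 4 (2018 and 2857 CPM, against 54.3 to 267 and 109 to 405 CPM on day 2). Without it the fold changes were 0.53 and 0.40 (adjusted p = 0.38 and 0.51), and the robust fit called neither.

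Absorptive enterocyte markers rose over the same days, 7 of 12 in APCCM (summed level 15173 to 16032 CPM, then 19663 to 21691 CPM) and 10 of 12 in WTCM (15379 to 16438 CPM, then 20619 to 23257 CPM), with none at 0. Of 10 crypt base stem cell markers, 9 fell and 0 rose in APCCM (median -0.39, summed level 4680 to 4826 CPM, then 3472 to 3752 CPM), and 3 fell and 1 rose in WTCM (5294 to 5735 CPM, then 5578 to 5960 CPM). The part of both lists in the changes of the mitochondrial RNAs was not tested. Of the 21 nuclear subunits, 0 were higher and 1 lower in APCCM, and 0 higher and 2 lower in WTCM. Of 20 RNA processing genes, 2 were lower in APCCM, and 4 were lower and 1 higher in WTCM. Of 14 replication genes, 2 and 1 were lower. The 19 aminoacyl-tRNA synthetases had 5 lower and 0 higher in APCCM, and 6 lower and 1 higher in WTCM. The 19 rRNA and tRNA modification genes had 4 lower and 3 higher, then 4 lower and 1 higher. The 15 biogenesis regulators had 2 lower and 2 higher, then 4 lower and 1 higher. None of the 9 transcription genes was called. Among all genes, 11.7% and 11.6% were called lower, and 12.2% and 12.5% higher. Twnk, the helicase of mitochondrial DNA replication, fell by 0.47 ± 0.05 and 0.38 ± 0.05.

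Whether the days differed between the labels was tested as an interaction. By edgeR, 0 of 27 members were called (2.13% of all genes were, 0.884% higher and 1.24% lower), 5 had an unadjusted p under 0.05, and the DESeq2 test also called 0. The largest differences among the 7 well counted mRNAs were -0.30 ± 0.13 for mt-Nd6 (adjusted p = 0.36) and -0.13 ± 0.12 for mt-Nd2 (adjusted p = 0.73), and the SE of the others was 0.09 to 0.12. A p that misses the threshold does not show that the days acted alike.

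The 10 tRNA genes that did not pass the filter were mt-Tf, mt-Tv, mt-Tc, mt-Ty, mt-Tk, mt-Tg, mt-Tr, mt-Th, mt-Ts2 and mt-Tl2. The highest count among them was 21 reads in a library (mt-Tc), and mt-Th and mt-Ts2 had 0 counts in all 16 libraries.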

How the data were processed

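The authors deposited raw read counts per Ensembl gene for each of the 16 libraries. The submitters' processing notes name HTSeq 0.6.1p1 beside HISAT2 2.1.0, Trimmomatic 0.36 and GRCm38. Strand setting and annotation release: not given in the sources used here. The 5 summary lines of each table entered neither library sizes nor tests. Symbols, coordinates and transcript sequences came from GENCODE M21, which named 45143 of 46078 identifiers.

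CPM was computed on all gene counts. Tests were edgeR 4.0.16 quasi-likelihood tests (limma 3.58.1, R 4.3.3) with TMM scaling (factors 0.898 to 1.26), filterByExpr and Benjamini-Hochberg adjustment over 16510 genes, in a single fit of 6 groups with 10 residual degrees of freedom; the standard error was the size of the log2 fold change over the square root of F. The test was tested on simulated data. The robust version of this fit was run first; the version without it was taken as the main one because the planned design named it. It calls more members in 5 of the 6 comparisons, so calls that the robust version ends are named in the text. Alternatives were other scalings, no filter, DESeq2 1.42.0, fewer libraries and a replicate block. No pair of replicates held the same library (chi-square per degree of freedom 3.30 to 42.2). All protein-coding and rRNA genes, the tRNA genes that passed the filter, and up to 2 called genes of each nuclear list were named. The members and lists were chosen with earlier results of these data known. Copies were searched as shared 50-base stretches between mitochondrial and nuclear transcripts, and nuclear DNA outside annotated transcripts was not searched.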

Additional observations from a re-analysis of the deposited data

How the results depend on the processing

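Counts of members called moved by over 1.5 times under these settings. Between labels on day 2 (11 called) there were 7 with a replicate block and 6 in the robust fit, an unplanned setting that was run after seeing the data and before the main fit. Between labels on day 4 (4 called) there were 8 without the low count filter, 1 with the replicate block, 0 in the robust fit and 1 in the DESeq2 test. Between days, no filter gave 13 in APCCM (8 called) and 13 in WTCM (8 called), and the robust fit 5 in WTCM. For the interaction (0 called), no filter gave 3. Without the filter the estimated prior degrees of freedom went from 13.7 to infinite, which gives a gene's own spread no weight, so those calls do not take replicate spread of the gene into account. For the interaction, the fit of conditioned medium libraries alone called 568 of all genes against 351. The ratio of summed protein-coding CPM of untreated APC to WT was -0.25 (log2) on TMM library sizes against -0.08. The other causes were not tested. Leaving out the members wholly inside the copied stretch moved the counts by under 1.5 times, to 14 without conditioned medium (15 called) and 9 between labels on day 2 (11 called).

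Leaving out 1 library at a time gave 3 to 10 members between labels on day 2, 0 to 6 on day 4 and 5 to 8 between days in WTCM, and 1725 to 2484 of all genes between labels on day 2 (2755 called). Single fold changes reversed in such fits: mt-Nd5 without medium (-0.0079 to 0.17), mt-Rnr1 between labels on day 2 (-0.61 to 0.82) and day 4 (-2.55 to 0.10), mt-Rnr2 on day 4 (-2.32 to 0.20), mt-Nd4 (-0.015 to 0.13) and mt-Nd5 (-0.0026 to 0.12) on day 4, and mt-Rnr2 between days in APCCM (-0.35 to 0.51).

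In conditioned medium, replicate numbers showed no pairing of the samples. Deviations of same-numbered libraries correlated at -0.28 to 0.29 there, and those of differently numbered ones at -0.42 to 0.38. The replicate block called 14, 7, 1, 7, 8 and 0 members in the 6 comparisons. Without medium the correlation was -0.73 for the same numbers and 0.73 for crossed ones. With 2 libraries in each group these are the same value with its sign turned, so they cannot decide on pairing. Crossing the numbers there gave 15 members and 10564 of all genes.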
